A study of Mus musculus with 5 samples.

Results

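Ehhadh, Hsd17b4, Acaa1a, Abcd2, Abcd3 and Pex11a encode transporters, enzymes and a division factor of peroxisomal fatty acid oxidation, and were followed in mouse heart RNA on 5 whole-transcript arrays. The set was given by gene name, and each was read from the probe set that carried its symbol alone and had the highest mean over the 5 arrays. All 6 genes were measured, each by 1 such probe set, among 22180 genes with a probe set of 1 symbol. Wild type hearts gave 3 arrays (replicates 3, 4 and 5) and Akita hearts 2 (replicates 1 and 3), all from the hearts of 12 week old males of the C57BL/6 background. Akita mice carry a mutation in 1 copy of Ins2, an insulin gene expressed in pancreatic beta cells, and the labels call them a model of type 1 diabetes. The mutation is therefore in the whole animal and not restricted to the heart. Whether each array stands for a separate animal is not given, so the p-values measure only the spread between these samples, which may be technical.

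Peroxisomes shorten very long-chain and branched fatty acids that mitochondria handle poorly. Acyl-CoA enters through ABCD transporters, is dehydrogenated by an acyl-CoA oxidase that yields hydrogen peroxide, is hydrated and dehydrogenated again by a multifunctional enzyme, and is cleaved by a thiolase. In heart muscle, mitochondria carry out most fatty acid oxidation. In rodent liver the nuclear receptor PPAR-alpha, bound to DNA with a retinoid X receptor, is known to induce many of these genes, with Ehhadh and Pex11a among its classical targets.

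The sequences just before the start sites of Ehhadh, Abcd3 and Pex11a are shown because Ehhadh and Abcd3 lay farthest above wild type in the Akita hearts, whereas Pex11a, like Ehhadh a classical PPAR-alpha target, did not. They come from RefSeq on assembly GRCm38.p6, which matched 4 of the 6 genes, and each holds the 250 bases before the start, 5′ to 3′ on the gene's strand. Capitals mark GGGTCA (a hexamer that nuclear receptors can bind), CCAAT or GGGCGG on either strand.
Ehhadh, chr16:21787835-21788084, minus strand: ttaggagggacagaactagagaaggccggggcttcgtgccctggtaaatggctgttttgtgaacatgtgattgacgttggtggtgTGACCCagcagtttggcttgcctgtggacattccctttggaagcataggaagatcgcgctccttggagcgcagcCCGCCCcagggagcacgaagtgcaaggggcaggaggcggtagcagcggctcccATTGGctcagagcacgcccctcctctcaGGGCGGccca
Abcd3, chr3:121815303-121815552, minus strand: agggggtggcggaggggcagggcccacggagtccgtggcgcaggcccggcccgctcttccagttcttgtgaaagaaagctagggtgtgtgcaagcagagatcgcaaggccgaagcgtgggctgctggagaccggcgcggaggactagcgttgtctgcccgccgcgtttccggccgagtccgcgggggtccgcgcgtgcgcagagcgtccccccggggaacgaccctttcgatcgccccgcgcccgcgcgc
Pex11a, chr7:79743132-79743381, minus strand: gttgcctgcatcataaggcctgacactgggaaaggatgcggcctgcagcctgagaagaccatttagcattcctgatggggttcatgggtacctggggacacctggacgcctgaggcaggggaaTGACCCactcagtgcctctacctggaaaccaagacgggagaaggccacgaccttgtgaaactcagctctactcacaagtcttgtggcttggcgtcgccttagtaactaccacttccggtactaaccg

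No AGGTCANAGGTCA, the direct repeat spaced by 1 base that PPAR-alpha and its partner bind, was found in these windows or in that of Acaa1a, also with GGGTCA allowed in place of AGGTCA on either side. Among all 32851 promoter windows of this length, 0.0335% held the first form and 0.0913% either form, searched on both strands. The single hexamer GGGTCA was present once in Ehhadh, 165 bases before the start, and once in Pex11a, 127 bases before it, and was found in 11.6% of all windows. It was not found in Abcd3 or Acaa1a, and AGGTCA (14% of all windows) was in none of the 4. CCAAT (33.8% of all windows) occurred once in Ehhadh and 3 times in Acaa1a, and GGGCGG (32.7%) occurred 2 and 3 times in the same genes. These motifs do not overlap one another in the printed windows. The Abcd3 window held none of these motifs and had the highest GC content of the 4, at 72%, against 60.4% in Ehhadh, 55.6% in Pex11a, 53.6% in Acaa1a and a median of 52.4% over all windows. Matches of letters show no binding, and sites farther from the start or inside the genes were not searched. The Acaa1a entry starts downstream of the start given for that gene, so its window may overlap a transcript, and its sequence is not shown. Abcd3 had 2 entries, and only the one farthest upstream was searched.

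The study set Akita against wild type hearts to characterise the diabetic heart. The values are log2 signals per probe set. Array medians ran from 4.53 to 4.71. Across genes the arrays correlated at 0.985 to 0.993, where genes are not independent replicates, and the pair of Akita arrays stood at 0.989, below the lowest pair of wild type arrays at 0.992. Over all 15528 genes tested with limma, 51 passed an adjusted p of 0.05, 33 higher and 18 lower, and the median difference was -0.032. The Akita mean was the higher in 43.5% of all genes tested, or 6749 genes. That count was 9675 with the arrays centred on the median of the genes tested. It was 5769 with centring on the median of all genes with a probe set and 7824 after a further quantile normalization. Heart muscle markers were bright in every array, with Myh6, the adult myosin heavy chain, between 12.83 and 12.95, although Nkx2-5 and Myl2 lay lower in Akita, as given at the end. Akita replicate 3 stood apart in atrial genes, as Sln, an atrial calcium pump regulator, lay at 10.85 there and at 7.74 to 8.13 in wild type. Akita replicate 1 lay under the wild type range of Sln, at 6.71. The difference of each of the 6 genes is therefore given with and without Akita replicate 3.

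None of the 6 peroxisomal genes passed the adjusted threshold, where 0.328% of all genes tested did. Ehhadh, Hsd17b4 and Abcd3 lay slightly above wild type in both Akita hearts, by 1.09-fold to 1.20-fold on the group means, while Acaa1a, Abcd2 and Pex11a spread across the wild type range. The count at an unadjusted p under 0.05 in the values as deposited was also 0 of 6, against 13.6% of all genes (4.13% higher and 9.49% lower). It was 2 of 6 with the arrays centred on the median of the genes tested (Ehhadh and Abcd3). It was 1 of 6 after a further quantile normalization (Ehhadh), without wild type replicate 4 (Ehhadh) and with an intensity trend in limma (Abcd3). Both Akita arrays lay above all 3 wild type arrays in 3 of the 6 genes and below them in 0, where 9.89% and 19.9% of all genes tested did so. The 6 differences had a median of 0.052 and ran from -0.14 to 0.26. That median moved between 0.015 and 0.155 as single arrays were left out, with 0.155 without Akita replicate 1 and 0.132 without Akita replicate 3. It was 0.146 with the arrays centred on the median of the genes tested and 0.02 with the arrays centred on the median of all genes with a probe set. With so few members, chosen with earlier results of these data known, the count is a description of these genes and was not tested as a group. All signals are of whole heart tissue, in which fewer cells of a type and less RNA per cell cannot be told apart.

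**Figure D1:**
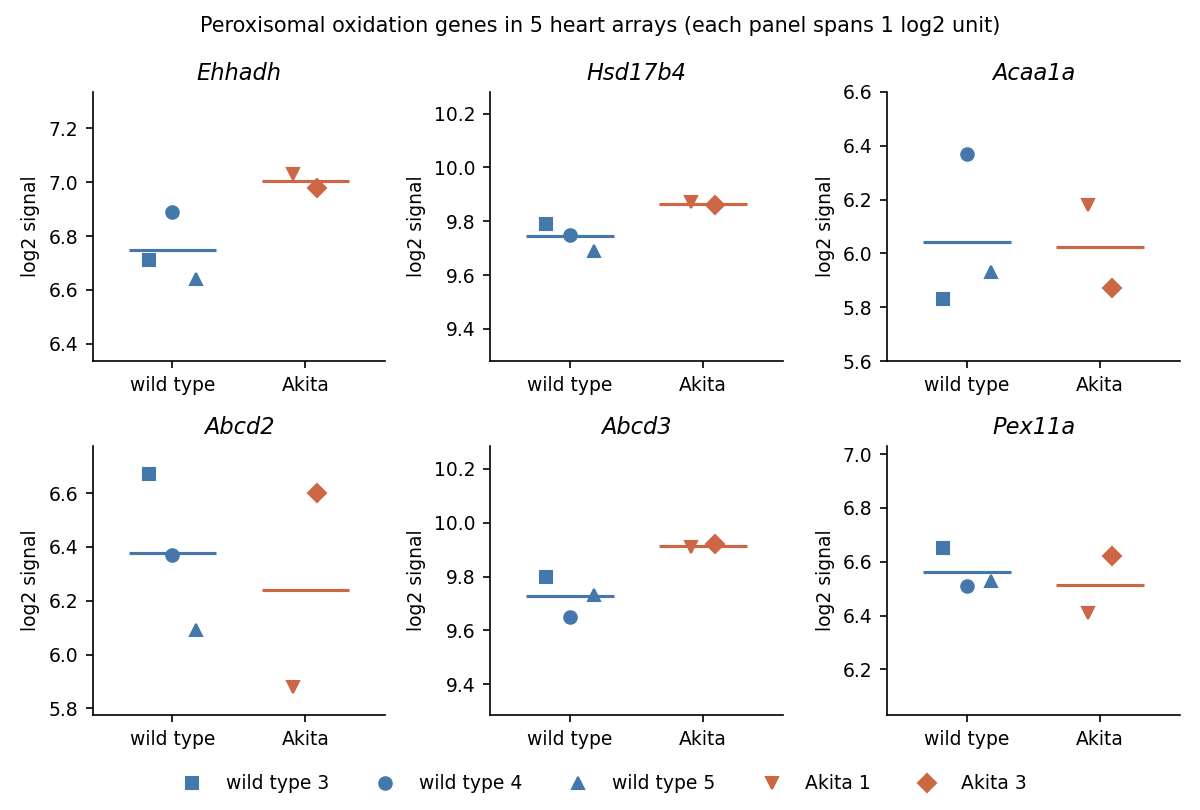
Log2 signal of each gene in each of the 5 arrays (blue, 3 wild type; orange, 2 Akita), with a line at each group mean and every panel spanning 1 log2 unit. In Ehhadh, Hsd17b4 and Abcd3 both Akita points lie above all wild type points, and in Abcd2 the Akita points lie at 5.88 and 6.60.

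The multifunctional enzymes carry out the middle steps of the cycle. Ehhadh, the L-bifunctional enzyme of the inducible pathway for straight chains, lay at 6.71, 6.89 and 6.64 in wild type replicates 3, 4 and 5 and at 7.03 and 6.98 in Akita replicates 1 and 3. The Akita pair was tight and above the brightest wild type array. Its means were 6.75 ± 0.13 (SD, n = 3) and 7.01 ± 0.04 (SD, n = 2), a log2 difference of 0.26 (SE 0.12, 95% interval -0.02 to 0.54; 1.20-fold; limma adjusted p = 0.403). This was the largest difference of the 6 genes, and it stood at the 91.2nd percentile of the differences of all genes tested. Ehhadh kept its direction with each array left out, between 0.21 and 0.33, and was 0.28 without Akita replicate 3.

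Hsd17b4, the D-bifunctional enzyme that also handles branched chains and bile acid precursors, gave 9.79, 9.75 and 9.69 in the wild type arrays and 9.87 and 9.86 in Akita replicates 1 and 3. The groups did not overlap, but the gap between the nearest arrays was small against the error. The wild type mean was 9.74 ± 0.05 (SD, n = 3) and the Akita mean 9.87 ± 0.01 (SD, n = 2), with a log2 difference of 0.12 (SE 0.11, 95% interval -0.12 to 0.37; adjusted p = 0.660 by limma). Leaving out single arrays moved it between 0.095 and 0.145, with 0.13 without Akita replicate 3. As a fold change, the interval reached from 0.917-fold to 1.29-fold.

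Acaa1a, a thiolase that cleaves the shortened chain, showed no separation of the groups. Its signal was 5.83, 6.37 and 5.93 in the wild type arrays and 6.18 and 5.87 in Akita replicates 1 and 3. Wild type replicate 4 was the highest array and wild type replicate 3 the lowest, so the Akita pair lay inside the wild type range. The log2 difference was -0.02 (SE 0.19, 95% interval -0.45 to 0.42; adjusted p = 0.977 by limma), and its sign turned with 4 alternatives, at 0.15 without wild type replicate 4 and 0.14 without Akita replicate 3. Acaa1b, a close paralog whose transcript can share probes with Acaa1a, lay at 5.08, 5.25 and 5.37 in wild type and 5.20 and 5.46 in Akita. Its difference was 0.10 (adjusted p = 0.807), so the paralog also did not separate the groups.

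The transporters of the ABCD family bring fatty acyl-CoA into the peroxisome. Abcd3, which carries dicarboxylic, branched and long chains and is an abundant protein of the peroxisomal membrane, read 9.80, 9.65 and 9.73 in wild type and 9.91 and 9.92 in the Akita arrays. Both Akita values lay above the highest wild type value. The means were 9.73 ± 0.08 (SD, n = 3) and 9.92 ± 0.01 (SD, n = 2), and the log2 difference of 0.19 (SE 0.11, 95% interval -0.07 to 0.44; 1.14-fold) had a limma adjusted p of 0.495. It was 0.18 without Akita replicate 3 and 0.19 without Akita replicate 1.

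Abcd2, a transporter of very long and polyunsaturated chains known from adipose tissue and brain, was the most variable of the 6. It lay at 6.67, 6.37 and 6.09 in wild type replicates 3, 4 and 5, at 5.88 in Akita replicate 1 and at 6.60 in Akita replicate 3. The Akita arrays thus held the lowest value of all and the second highest. The difference of -0.14 had an SE of 0.24 and a 95% interval of -0.70 to 0.43 (limma adjusted p = 0.854). It became -0.50 without Akita replicate 3 and 0.22 without Akita replicate 1, so that 1 array decides its direction. The 5 white adipocyte markers tested lay higher in both Akita arrays, whereas Abcd2 was high in 1 of them; the part of fat cells in its signal was not tested.

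Pex11a, a membrane protein that promotes peroxisome elongation and division and the most inducible of the PEX11 genes, lay at 6.65, 6.51 and 6.53 in wild type and at 6.41 and 6.62 in Akita replicates 1 and 3. The Akita arrays stood on either side of the wild type mean of 6.56 ± 0.08 (SD, n = 3). The difference was -0.05 (SE 0.12, 95% interval -0.33 to 0.23; limma adjusted p = 0.899), and it turned to 0.05 with centring on the genes tested, 0.06 after a further quantile normalization and 0.06 without Akita replicate 1, while it was -0.08 with centring on all genes and -0.15 without Akita replicate 3. Pex11g, its relative, lay at 5.87, 5.54 and 5.73 in wild type and at 6.05 and 5.58 in Akita, a difference of 0.10 (adjusted p = 0.844) with overlapping groups. Plin1, a lipid droplet gene next to Pex11a on chromosome 7 in the RefSeq gene order, differed by 0.46 (adjusted p = 0.212), with 5.24 and 5.47 in Akita against 4.95, 4.78 and 4.96 in wild type.

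**Figure D2:**
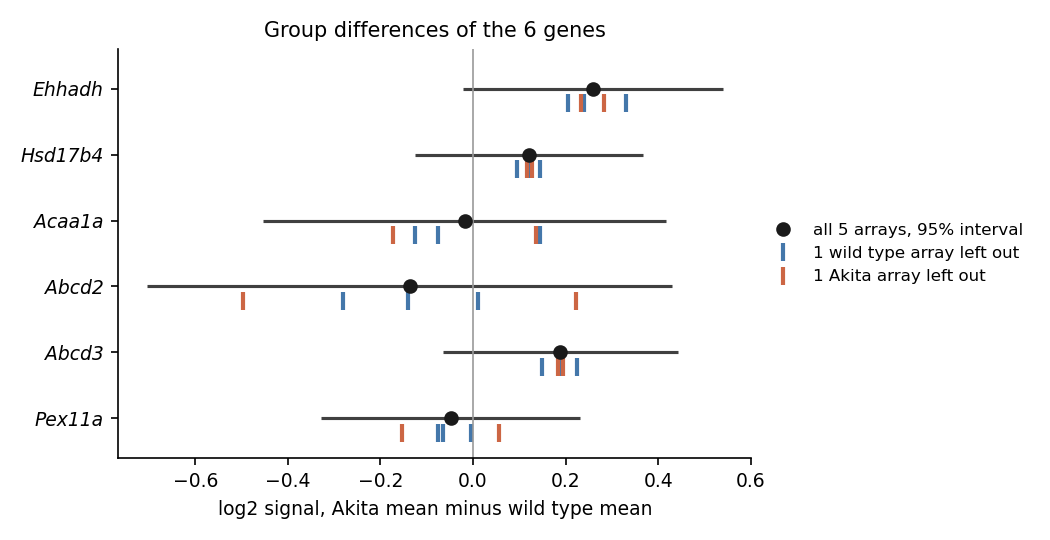
Akita mean minus wild type mean of log2 signal for each gene (points) with the 95% interval from limma (lines) and the differences with 1 wild type array (blue ticks) or 1 Akita array (orange ticks) left out. All 6 intervals include 0, and the ticks of Abcd2 run from -0.50 to 0.22.

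The 6 genes did not follow 1 pattern over the 5 arrays. Profiles were compared as the root mean square difference between 2 genes' log2 values after each gene's own mean was taken off. Hsd17b4 and Abcd3 were most alike, at 0.057, and Ehhadh stood 0.102 from Hsd17b4 and 0.127 from Abcd3. Acaa1a and Abcd2 were least alike, at 0.435. The likeness of the first 3 genes includes the shift between groups that they share. Acaa1a and Abcd2 varied by more than 0.5 over the arrays, and the genes nearest to each among the 13912 searched were Foxf1 (0.029), Zfp647 (0.044) and Yju2 (0.051) for Acaa1a and Rab2b (0.044), Aff2 (0.045) and Ptpmt1 (0.057) for Abcd2. With 5 arrays and so many genes searched, near matches of this kind carry no weight of their own.

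Other genes of peroxisomal fatty acid oxidation, among them oxidases, auxiliary enzymes and carnitine acyltransferases, showed no common shift. Of 24 genes listed, 21 had a probe set of 1 symbol and 18 were bright enough to test; 10 lay higher and 8 lower, and the median difference was 0.014 (0.108 with centring on the genes tested, where 13 lay higher, and -0.018 with centring on all genes, where 8 did). None passed by limma, and 1 had an unadjusted p under 0.05, as did 13.6% of all genes tested. Of all genes tested, 43.5% lay higher. Acox3, an oxidase of branched chains, lay at 7.10, 7.02 and 6.68 in wild type and 6.67 and 6.92 in Akita (difference -0.14, adjusted p = 0.748), and Scp2, a thiolase and sterol carrier, differed by 0.04 (adjusted p = 0.911). Ephx2, an epoxide hydrolase found in peroxisomes and cytosol, had the smallest p of the list, with 10.64, 10.51 and 10.61 in wild type and 10.88 and 11.05 in Akita. Its difference of 0.38 (SE 0.11) did not pass by limma (adjusted p = 0.242), though both Akita arrays were above the wild type range.

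Peroxins, which import proteins into peroxisomes or divide them, had 12 of 15 genes tested, 4 higher and 8 lower (43.5% of all genes higher). Their median of -0.042 turned to 0.052 with centring on the genes tested, where 9 lay higher, and 0.064 after a further quantile normalization, where 7 did, and was -0.073 with centring on all genes, where 4 did. By limma 0 passed the threshold, and 2, both lower, had an unadjusted p under 0.05, where 9.49% of all genes tested were lower. Pex10, a ubiquitin ligase of the import receptor cycle, lay at 7.43, 7.27 and 7.16 in wild type and at 6.74 and 6.86 in Akita, a difference of -0.49 (SE 0.12; limma adjusted p = 0.192). Pex16, a factor for membrane protein insertion, differed by -0.35 (adjusted p = 0.333), also with both Akita arrays below the wild type range. Among 13 other peroxisomal proteins tested, 5 lay higher and 8 lower, with 0 past the threshold, 1 lower at an unadjusted p under 0.05 and a median of -0.10, or -0.006 with centring on the genes tested, -0.132 with centring on all genes and 0.004 after a further quantile normalization. Without Akita replicate 3 that median was -0.19, and without Akita replicate 1 it was 0.063. They included the channel protein gene Pxmp2 (-0.40, adjusted p = 0.298), the glutathione transferase gene Gstk1 (-0.25, adjusted p = 0.414) and Gnpat, which starts ether lipid synthesis (-0.21, adjusted p = 0.491). Cat, the catalase that removes hydrogen peroxide made by the oxidases, lay at 11.83, 11.30 and 11.28 in wild type and 11.46 and 11.80 in Akita, with overlapping groups (difference 0.16, adjusted p = 0.769).

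Over the 43 other peroxisomal genes tested, both Akita arrays lay above the wild type range in 4 genes and below it in 9. The corresponding shares of all genes tested were 9.89% and 19.9%. Their median difference was -0.018, against -0.032 over all genes, and it became 0.076 with centring on the genes tested, -0.05 with centring on all genes and 0.014 after a further quantile normalization. At an unadjusted p under 0.05 the list held 1 higher and 3 lower genes, against 4.13% and 9.49% of all genes tested. Per array, the list median minus the wild type mean was -0.11 in Akita replicate 1 and 0.053 in replicate 3, and 0.090, -0.043 and -0.050 in wild type replicates 3, 4 and 5. Akita replicate 1 thus lay under the wild type arrays and Akita replicate 3 among them. The same order was seen over all genes tested, with medians of -0.07 and -0.013, and of -0.02 to 0.017 in wild type.

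**Figure D3:**
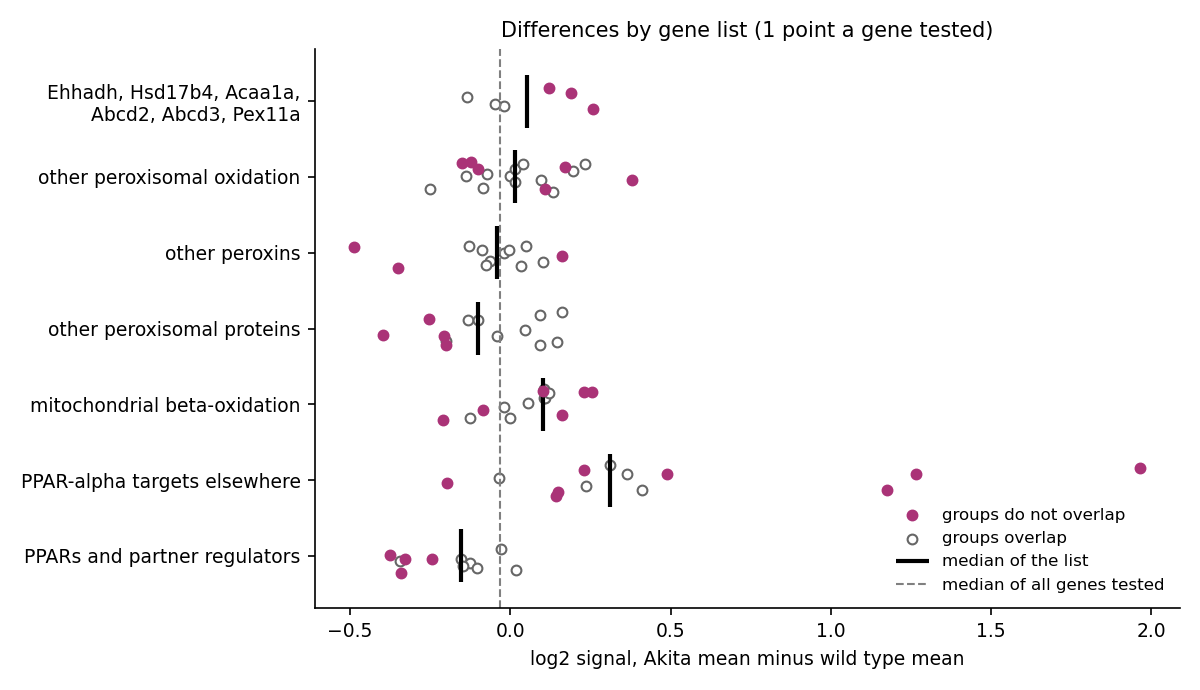
Differences in log2 signal (Akita mean minus wild type mean) for each gene tested in 7 lists, with filled points where the groups do not overlap, a bar at each list median and a dashed line at the median of all genes tested, -0.032. The peroxisomal lists centre near the dashed line, and the 3 points past 1 belong to the list of PPAR-alpha targets outside the peroxisome.

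The same receptor's targets outside the peroxisome and the mitochondrial cycle give the scale of the other fatty acid genes in these hearts. Among 13 PPAR-alpha targets outside the peroxisome, 11 lay higher and 2 lower, against 43.5% of all genes higher. Of these targets 0 passed the threshold by limma, 4 were higher at an unadjusted p under 0.05 (4.13% of all genes), and the median was 0.31. Up to 3 of them passed under other settings, the most with the intensity trend. The median was 0.14 without Akita replicate 3 and 0.42 without replicate 1. Pdk4, a kinase that restrains glucose oxidation, differed by 1.18 (adjusted p = 0.0550), Ucp3, a mitochondrial carrier, by 1.26 (adjusted p = 0.0785) and Angptl4, a lipase inhibitor, by 1.97 (adjusted p = 0.161). The difference of Angptl4 was 1.09 without Akita replicate 3 and 2.85 without Akita replicate 1. The difference between the gene lists was not tested, and Pdk4, Ucp3 and Angptl4 were known from earlier results of these data. Of 14 mitochondrial beta-oxidation genes, 4 lay lower, Acadm did not differ (a mean of 12.70 in both groups) and the rest lay higher. By limma 0 of these passed and 1 had an unadjusted p under 0.05, as did 13.6% of all genes tested. The median of the 14 was 0.103 (0.198 with centring on the genes tested, 0.072 with centring on all genes, and 0.053 without Akita replicate 3). Acaa2, the mitochondrial thiolase, lay at 11.70 and 11.67 in Akita and 11.39, 11.43 and 11.47 in wild type (difference 0.25, adjusted p = 0.350), and Decr1, a reductase for unsaturated chains, differed by 0.23 (adjusted p = 0.397) and Acads, a short-chain dehydrogenase, by -0.21 (adjusted p = 0.507).

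The list of receptors and partners held PPARs, retinoid X receptors, estrogen-related receptors, PGC-1 coactivators and Nr1h3. Its genes lay lower in 10 of 11 cases, where 43.5% of all genes tested lay higher. They were lower in 9 of 11 with centring on the genes tested, 11 of 11 with centring on all genes and 8 of 11 after a further quantile normalization. Their median was -0.15 (-0.30 without Akita replicate 3). By limma 0 passed, and 2 were lower at an unadjusted p under 0.05, as were 9.49% of all genes tested. Ppara itself gave 8.20, 7.70 and 7.70 in wild type and 7.68 and 7.80 in Akita, a difference of -0.13 (adjusted p = 0.796). Wild type replicate 3 was the high array, and the other 4 lay within 0.12 of each other. Among the retinoid X receptors, Rxrb lay at 6.38 and 6.47 in Akita against 6.76, 6.69 and 6.95 in wild type (difference -0.38, limma adjusted p = 0.274). Rxrg differed by -0.33 (adjusted p = 0.386), and Nr1h3, a sterol-sensing receptor, by -0.34 (adjusted p = 0.275).

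**Figure D4:**
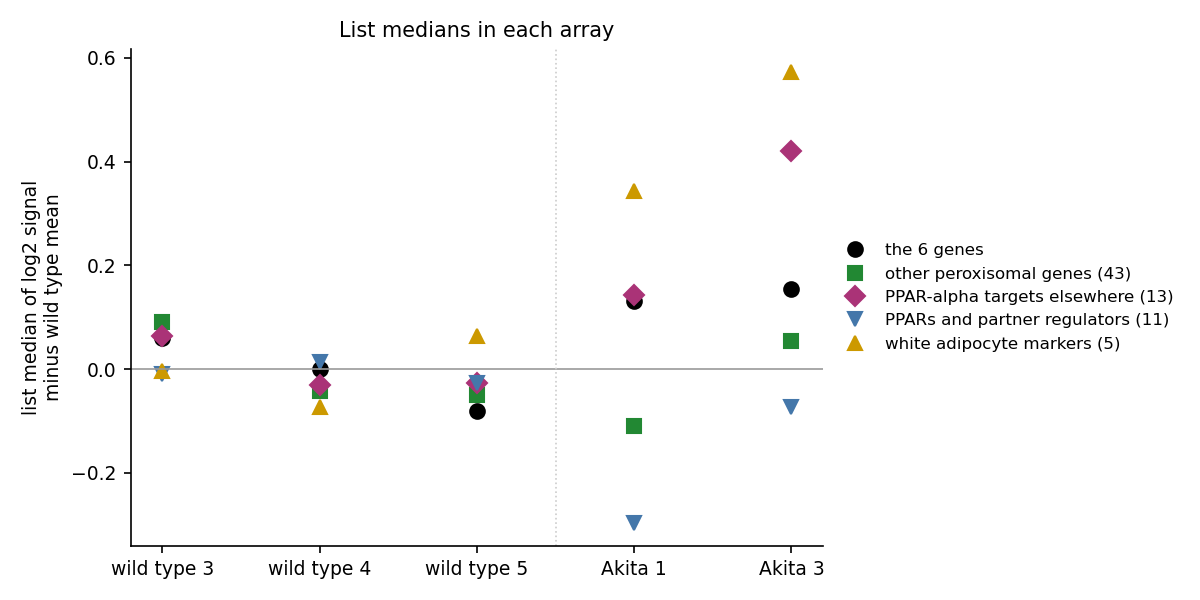
Median over each gene list of log2 signal minus the gene's wild type mean, for each of the 5 arrays. The 6 genes stand at 0.13 and 0.155 in Akita replicates 1 and 3 and between -0.08 and 0.06 in wild type, and the white adipocyte markers at 0.34 and 0.57.

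Markers of other tissues rich in peroxisomes moved with the groups in part. All 5 white adipocyte markers tested lay higher in Akita (43.5% of all genes tested did), and the marker median of 0.46 was 0.34 without Akita replicate 3. By limma 0 passed the threshold, and 5 had an unadjusted p under 0.05 (4.13% of all genes). With the intensity trend 1 passed, as did 1 brown adipocyte and 1 heart muscle marker. Among the 5 were Cidec, a lipid droplet gene (difference 0.78, adjusted p = 0.219, or 0.40 without Akita replicate 3), and Retn, an adipocyte hormone (0.43, adjusted p = 0.234). The summed signal of the white adipocyte list, over 7 of 8 markers with a probe set, was 11.59 to 11.74 in wild type and 11.98 and 12.02 in Akita, on the log2 scale. That sum is mostly Fabp4, which heart capillaries also express, and the defining genes Adipoq and Lep lay at 3.58 to 4.05 and 3.39 to 4.21 in wild type and at 3.93 to 4.11 and 3.99 to 4.12 in Akita, under the filter on dim genes. For 5 brown adipocyte markers the summed signal was 8.92 to 9.06 in wild type and 8.95 and 9.48 in Akita. Ucp1, the defining gene, lay at 5.35 and 6.82 in Akita and at 4.17 to 4.36 in wild type (adjusted p = 0.131), Slc36a2 differed by -0.60 (adjusted p = 0.165) and Dio2 by 0.48 (adjusted p = 0.419). Without Akita replicate 3 the difference of Dio2 was 0.05. A dimmer probe set of Dio2 lay at 3.55 and 3.57 in Akita and at 3.39 to 3.73 in wild type. Of 8 hepatocyte markers 4 were bright enough to test, and the summed signal was 7.45 to 7.57 in wild type and 7.82 and 7.60 in Akita. Alb, the defining gene, lay at 3.20 to 3.40 in wild type and at 3.84 and 3.23 in Akita. Ttr, Tat and Apoa1 differed by 0.36, 0.31 and 0.30 (limma adjusted p = 0.374, 0.372 and 0.359). Apoa2, the other hepatocyte marker tested, differed by -0.028 (limma adjusted p = 0.946).

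Atrial markers stood at 12.11 to 12.22 in wild type and at 12.35 and 13.85 in Akita replicates 1 and 3 as summed log2 signal, where the sum in replicate 1 is mostly Nppa (12.21 there). The Akita arrays differed from each other, as the list median minus the wild type mean was -0.18 in Akita replicate 1 and 2.36 in Akita replicate 3, and Myl7, an atrial light chain, lay at 6.55 and 10.36 there against 7.83 to 8.10 in wild type. In the Akita mean 5 of 5 lay higher (43.5% of all genes tested), or 1 of 5 without Akita replicate 3, with 0 past the threshold. At an unadjusted p under 0.05 there was 1, higher, where 4.13% of all genes tested were. It was Nppa, the atrial natriuretic peptide (0.92, limma adjusted p = 0.274). Dkk3 differed by 1.10 (adjusted p = 0.482) and Myl4, another atrial light chain, by 0.22 (adjusted p = 0.736), or by -0.17 and -0.18 without Akita replicate 3. Without Akita replicate 3 the differences of Ehhadh, Hsd17b4 and Abcd3 were 0.28, 0.13 and 0.18, against 0.26, 0.12 and 0.19 with it. Heart muscle markers ran from 15.36 to 15.40 in wild type and were 15.31 and 15.29 in Akita as summed signal. Of these markers 7 of 8 lay lower, where 43.5% of all genes tested lay higher. The count was 5 of 8 with centring on the genes tested and 8 of 8 with centring on all genes. Among the lower ones were Nkx2-5, a cardiac transcription factor (-0.70, limma adjusted p = 0.125), Myl2, a ventricular light chain (-0.25, adjusted p = 0.387), and Tnni3, a troponin (-0.15, adjusted p = 0.608). The part of these cell type shifts in the signals of the 6 peroxisomal genes was not tested.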

How the data were processed

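Biotin-labelled total heart RNA, 150 ng a sample, was measured on whole-transcript arrays, per the labels' protocols. The authors' deposited table holds a log2 signal for each probe set of each array, made with Affymetrix Expression Console per the submitters' processing notes; its version, the summarisation and any normalization between arrays were not given in the sources used here, and the log base was read from the range, 1.27 to 13.66. Values brought to like quantiles would hide a change shared by most genes, and background left in dim signals would shrink their differences.

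Of 41345 probe sets, 23521 had 1 gene symbol in the platform annotation and 1814 several; 16010 were not listed there and are unnamed here. Each of 22180 genes was represented by its brightest probe set, and 15528 genes at or above the 30th percentile of mean signal (log2 4.06) entered the test. Groups came from the sample titles. Akita minus wild type was fitted with limma 3.58.1 in R 4.3.3 (lmFit, eBayes, two-sided, Benjamini-Hochberg over all genes tested, threshold 0.05) with 3 residual and 4.38 prior degrees of freedom, checked on simulated data. Tables and figures were made in Python 3.11.15. Alternatives covered the filter, probe sets, normalization, centring, variance model, array weights, the threshold and each array left out; centring on all genes with a probe set was added after the data were seen.

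The 6 genes and the gene lists were chosen with earlier results of these data known. Genes named were the 6, their paralogs and partners, the 6 other peroxisomal genes and the 3 genes of each other list with the smallest p, and for members varying by at least 0.5 the 3 nearest profiles, leaving out predicted models, small RNAs and chemoreceptors. Chosen outside that rule were Myh6, Sln, Myl7, Alb, Adipoq, Lep, Fabp4 and Ppara, as defining or background genes, and Plin1 also as a neighbour. Apoa2 and Acadm were named to complete the counts of their lists. Some genes of the lists are not reported here. With 5 arrays, precision is limited throughout.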

Additional observations from a re-analysis of the deposited data

How the results depend on the processing

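The 6 genes and the other peroxisomal genes had 0 members past the threshold under all alternatives run, a threshold of 0.1 included, and the smallest adjusted p of any of the 6 over the refits was 0.264 (Abcd2 without Akita replicate 3). Ehhadh, Hsd17b4 and Abcd3 kept their direction in each of 13 refits. Acaa1a turned to 0.076 with centring on the median of the genes tested (-0.05 with centring on all genes with a probe set) and 0.068 after a further quantile normalization, and ran from -0.17 to 0.15 with an array left out. Pex11a turned to 0.046 and 0.06 with centring on the genes tested and quantile normalization (-0.08 with centring on all genes) and ran from -0.15 to 0.057, and Abcd2 from -0.50 to 0.22 (0.01 without wild type replicate 3). The median of the 6 genes moved from 0.052 to 0.146 with centring on the genes tested, 0.02 with centring on all genes and 0.113 with quantile normalization, with 0.015 to 0.155 when an array was left out, and that of the other peroxisomal genes from -0.018 to 0.076 and -0.05 with these centrings. Calls over all genes went from 51 to 28 (array weights), 30 (centred on the genes tested), 58 (centred on all genes), 32 (quantile), 86 (no filter), 197 (intensity trend and robust prior) and 96 (threshold of 0.1), and to 9 to 44 with an array left out, with 9, 14 and 21 when the wild type array left out was replicate 3, 4 or 5 and 11 without Akita replicate 3. Calls higher and lower were 33 and 18, but 25 and 5 centred on the genes tested and 60 and 137 with the trend. The causes were not tested. With an Akita array left out, the remaining one was assumed to vary like the wild type arrays. No paired analysis was possible because the groups share 1 replicate number. Dim genes are limited by the signal over background, which is not given.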
